A study of Mus musculus with 16 samples.

Results

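The genes described here are 45 components of the cell cycle machinery, grouped by role: 18 replication genes, 2 E-type cyclins of the G1/S step and 25 genes of mitosis. They were chosen by gene symbol in the platform annotation of the array, with the probe set of highest mean used for each gene. Of the 45, 42 were measured (17 replication genes, 2 cyclins and 23 mitosis genes) among 19505 genes in all, and the other 3 are not analysed here. The values came from mouse liver biopsies on 1-colour Affymetrix-type arrays. Of the 16 samples, 8 carried the label NASH model, after nonalcoholic steatohepatitis, a fatty liver disease with inflammation and cell injury, and 8 carried the label control, and all were C57BL/6 mice. The labels used here give no diet, toxin, age, sex or time for either group, and do not say whether the samples are separate animals. The p-values therefore rest on the spread among these arrays, which may be technical in part. The study's title concerns soluble guanylate cyclase, but the samples used here hold no group given such a drug, and the comparison they allow is how the division genes of the NASH model liver differ from those of control liver.

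A cell that divides first loads the MCM helicase onto replication origins with the help of Cdc6 and Cdt1, copies its DNA with polymerases clamped by Pcna while ribonucleotide reductase supplies the nucleotides, and then enters mitosis under cyclin A, cyclin B and the kinase Cdk1. The messengers for these proteins follow the cycle: those of replication peak around the S phase under E2F factors, and those of mitosis peak in G2 and M phase through promoter elements named CHR and CCAAT. The adult liver is mostly quiescent and divides again after injury or loss of tissue. In a diseased liver the dividing cells may be hepatocytes, bile duct cells, matrix-producing cells or leukocytes.

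In NASH model livers 25 of the 42 measured genes were higher and 0 were lower. The threshold was an adjusted p of 0.05 (Benjamini-Hochberg, across the 19505 genes) in limma, which fits a linear model to each gene and moderates its variance. The higher members made up 59.5% of those measured, beside 13.2% of all genes tested that were higher, 13.4% that were lower and 26.6% that passed in either direction. Members had a median log2 fold change of 0.61, against -0.04 over all genes. The members that rose were spread over both phases, 10 of 17 replication genes and 14 of 23 mitosis genes. The other 17 members did not pass, 10 of them with positive and 7 with negative estimates. For 8 members the 2 groups did not overlap, all of them higher in the NASH model, while 5.65% of all genes tested did not overlap in that direction and 9.54% in either. Scaling moved the split of calls over all genes: 49.6% of them were higher here, 39.2% with arrays centred on their medians and 77.3% with arrays centred on the hybridization spike-in controls. Members higher numbered 26 and 32 under these scalings, beside 12.1% and 18.3% of all genes tested that were higher. In these bulk samples a larger share of dividing cells and more RNA per cell cannot be told apart. The tissue matched its label: 10 hepatocyte markers, among them albumin, averaged 11.64 to 11.73 in NASH model samples and 11.76 to 11.84 in control samples on the log2 intensity scale.

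**Figure D1:**
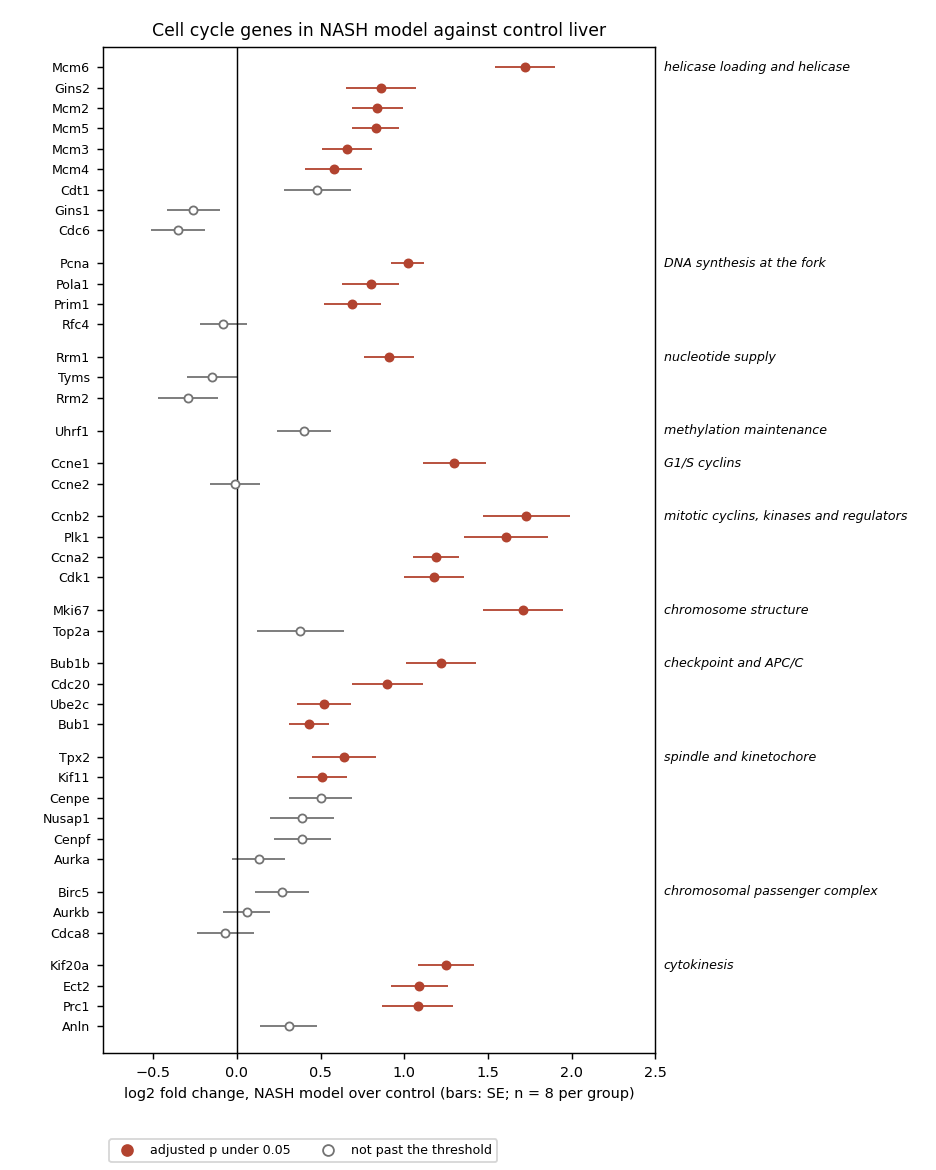
Log2 fold change of each of the 42 measured members, NASH model over control, with its standard error, sorted by role. Filled points passed an adjusted p of 0.05; all 25 of them lie right of 0, and Ccnb2, Mcm6 and Mki67 lie farthest right, close to each other.

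Many of these genes lie near the lower end of the array's range. A background floor of 2.89 on the log2 scale was set so that 95% of the values of 1410 receptor genes of smell and pheromone sensing, which liver is not known to use, lay under it. The control mean lay above the floor for all 17 replication genes but for 11 of 23 mitosis genes, and the NASH model mean for 16 and 22. For Cdk1, Bub1b and Cdc20 all 8 controls were below the floor, so their folds are given as "at least". For 6 more called mitosis genes (Plk1, Kif20a, Ect2, Prc1, Tpx2 and Kif11) the control mean, but not every control, lay below the floor, so the size of their differences rests in part on background signal. With group means below the floor raised to it, 4 and not 9 mitosis genes reached 2-fold. Signals near the floor can also compress differences, which was not measured here, so folds of the dim genes are uncertain in size.

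The MCM2-7 complex is the ring-shaped helicase that opens DNA ahead of the fork, and its 5 measured subunits all rose. Mcm6 had the highest estimate of the 5. Its lowest, median and highest values were 5.17, 5.39 and 6.11 (log2 intensity) in NASH model livers, against 2.89, 3.76 and 4.43 in control livers. Every NASH model sample lay above every control, and the log2 fold change was 1.72 ± 0.18 SE (3.29-fold, limma adjusted p = 5e-07). Mcm2 had 4.56, 4.95 and 5.37 in NASH model livers, against 3.51, 4.10 and 4.66 in control livers. Here 6 of 8 NASH model samples lay above the highest control, and the log2 fold change was 0.84 ± 0.15. Mcm5 (0.83 ± 0.14), Mcm3 (0.66 ± 0.15) and Mcm4 (0.58 ± 0.17) rose less than Mcm6 in estimate, and the differences between subunits were not tested. Mcm4 missed the threshold without NASH model 2 and 7, a pair of samples that an earlier analysis of these data had set apart (0.54, limma adjusted p = 0.051).

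The promoters of Mcm6 and Mcm5 are shown as examples that hold a pair of overlapping E2F forms. Forms closer to the start of transcription were found in Mcm3 (at 20 and 39) and Cdt1 (at 33). Cdt1, Cdc6 and Uhrf1, which did not pass, hold an E2F form too. Each run is 300 bases from RefSeq, build GRCm38.p6, 5′ to 3′ in the direction of the gene, with 250 bases before and 50 after the start. The windows are Mcm6 at chr1:128359656-128359955 on the minus strand, and Mcm5 at chr8:75109259-75109558 on the plus strand. Capitals mark CCAAT and the E2F forms TTTCCCGC, TTTCGCGC, TTTGCCGC and TTTGGCGC on either strand, so that ATTGG is CCAAT on the other strand; overlapping matches run together. TTTGAA was searched too and has no match in either window.
Mcm6: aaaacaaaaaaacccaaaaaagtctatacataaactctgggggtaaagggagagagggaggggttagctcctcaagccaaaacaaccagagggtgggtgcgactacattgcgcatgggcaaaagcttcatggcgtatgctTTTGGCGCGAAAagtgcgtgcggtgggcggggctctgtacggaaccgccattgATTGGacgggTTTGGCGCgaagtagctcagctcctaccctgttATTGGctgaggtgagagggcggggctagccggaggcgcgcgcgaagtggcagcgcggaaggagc
Mcm5: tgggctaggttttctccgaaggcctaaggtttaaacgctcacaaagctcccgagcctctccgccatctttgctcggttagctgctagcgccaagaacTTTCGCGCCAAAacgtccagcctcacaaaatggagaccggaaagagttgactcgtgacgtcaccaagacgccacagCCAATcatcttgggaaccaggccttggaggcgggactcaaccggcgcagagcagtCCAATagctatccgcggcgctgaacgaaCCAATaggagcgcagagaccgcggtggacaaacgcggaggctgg
In Mcm6 a pair of overlapping E2F forms begins at -110 and -106 from the start and a single form at -47, with CCAAT at -57 and -14. In Mcm5 the overlapping pair begins at -153 and -149, with CCAAT at -77, -22 and 7.

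Of the 4 loading and activation factors of the helicase, 1 rose and 3 did not pass. Gins2, a subunit of the GINS complex that joins the helicase to the polymerase, rose by 0.86 ± 0.21. Gins1, its partner in the same complex, had an estimate of -0.26 ± 0.16 (limma adjusted p = 0.28). Cdc6, a loader of the helicase, had 2.05, 2.65 and 3.24 in NASH model livers, against 2.46, 3.02 and 3.40 in control livers. Its estimate of -0.35 ± 0.16 did not pass (limma adjusted p = 0.13), 6 NASH model and 4 control samples lay below the floor, and it passed as lower with arrays centred on their medians (-0.45) and without NASH model 1b (-0.44). Cdt1, the other loader, had an estimate of 0.48 ± 0.20 (limma adjusted p = 0.084) and passed under 5 of 29 alternative settings: with values as deposited (0.62), with median centring (0.54), with spike-in centring (0.75), without control 3 (0.60) and without control 4 (0.57).

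At the fork, Pcna rose with the smallest standard error of all members. Pcna, the sliding clamp that holds the polymerases on DNA, had 8.11, 8.30 and 8.72 in NASH model livers, against 7.09, 7.32 and 7.53 in control livers. The groups did not overlap, and the log2 fold change was 1.02 ± 0.10 (2.03-fold, limma adjusted p = 2.7e-07). Pola1, the catalytic subunit of the polymerase that begins each strand, rose by 0.80 ± 0.17, with 7 of 8 NASH model samples above the highest control. Prim1, the primase that makes the RNA primers, rose by 0.69 ± 0.17. Rfc4, a subunit of the loader of Pcna, had an estimate of -0.08 ± 0.14 (limma adjusted p = 0.74), and its sign turned with the scaling, to 0.05 with values as deposited and 0.18 with centring on spike-in controls.

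Of the genes that supply nucleotides, Rrm1 rose while Rrm2 and Tyms did not pass. Rrm1 and Rrm2 encode the large and the small subunit of ribonucleotide reductase, which makes the deoxynucleotides. Rrm1 had 4.97, 5.6 and 5.76 in NASH model livers, against 4.0, 4.52 and 5.12 in control livers. Its log2 fold change was 0.91 ± 0.15, with 7 of 8 NASH model samples above the highest control. Rrm2 had 3.76, 4.31 and 4.76 in NASH model livers, against 3.64, 4.76 and 5.06 in control livers. The ranges overlapped widely and the estimate was -0.29 ± 0.18 (95% interval -0.67 to 0.09, limma adjusted p = 0.28). The lowest control, control 3, lay at 3.64 and the other 7 between 4.54 and 5.06, and without control 3 Rrm2 passed as lower (-0.43, limma adjusted p = 0.033). Tyms, thymidylate synthase, had an estimate of -0.15 ± 0.15. Uhrf1, which carries DNA methylation over to the new strand, had an estimate of 0.40 ± 0.16 (limma adjusted p = 0.065) and passed under 12 of 29 alternative settings.

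Of the E-type cyclins, which drive entry into the S phase with Cdk2, Ccne1 rose and Ccne2 did not pass. Ccne1 had 4.09, 4.35 and 4.97 in NASH model livers, against 2.42, 3.37 and 3.64 in control livers. The groups did not overlap, and the log2 fold change was 1.30 ± 0.19 (2.47-fold, limma adjusted p = 3.1e-05). Ccne2 had 3.02, 3.32 and 3.77 in NASH model livers, against 2.53, 3.40 and 3.83 in control livers. All NASH model samples lay within the control range, and the estimate of -0.01 ± 0.15 (95% interval -0.33 to 0.31) changed sign with the scaling, being 0.04 with values as deposited and 0.17 with spike-in centring.

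Some members of like name were compared within single arrays. They were picked with their values known, and same-stem members with like changes, such as Mcm2 with Mcm5 or Cenpe with Cenpf, were not entered, so the differences are given with no test. Rrm1 minus Rrm2 averaged 1.13 ± 0.41 in NASH model livers and -0.07 ± 0.62 in control livers (SD, n = 8 each). Ccne1 minus Ccne2 averaged 1.15 ± 0.35 in NASH model livers and -0.17 ± 0.73 in control livers. Gins1 minus Gins2 averaged -1.17 ± 0.50 in NASH model livers and -0.06 ± 0.78 in control livers. For Aurka minus Aurkb the averages were 0.11 ± 0.33 in NASH model livers and 0.04 ± 0.47 in control livers.

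**Figure D2:**
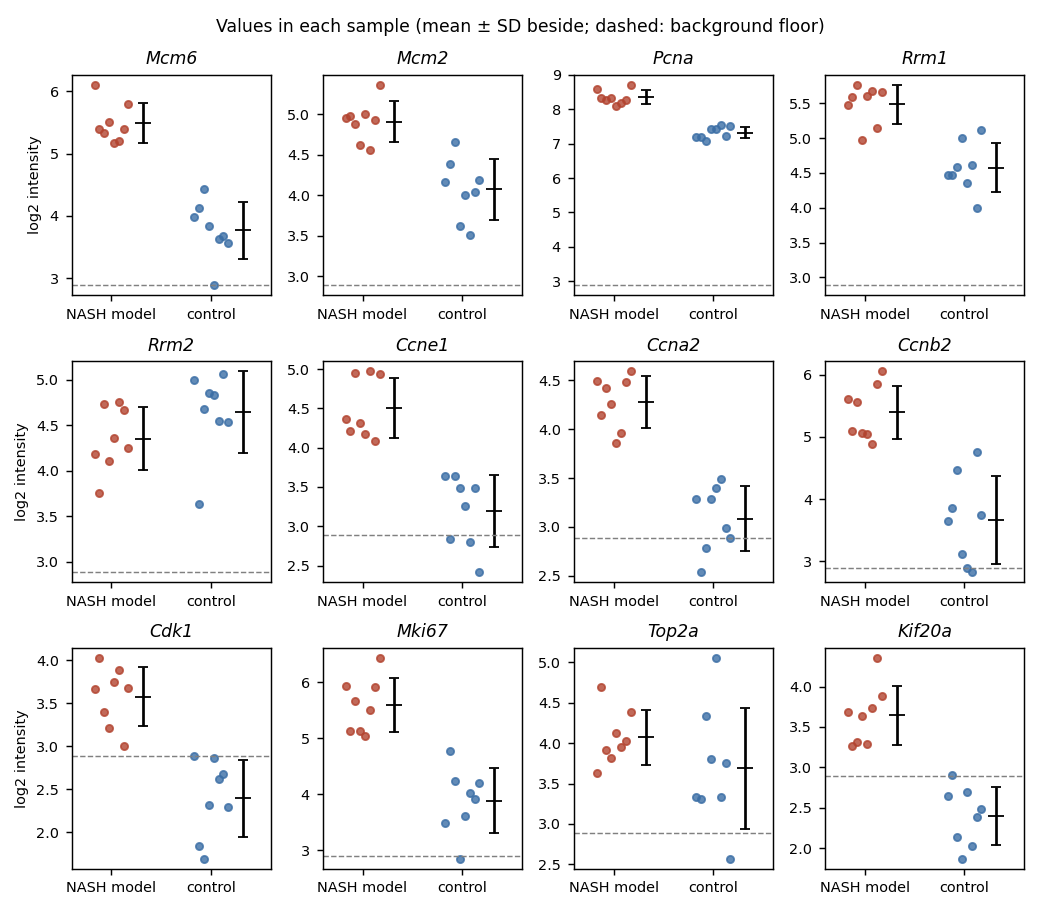
Log2 intensity in each sample for 12 members, with 8 NASH model samples at the left and 8 control samples at the right of each panel; black marks are mean ± SD, the dashed line is the background floor, and each panel has its own axis. Mcm6, Pcna, Ccne1, Ccna2, Ccnb2, Cdk1, Mki67 and Kif20a do not overlap between groups, while Rrm2 and Top2a do.

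All 4 measured cyclins and kinases of mitotic entry rose, beside 13.2% of all genes, with a median log2 fold change of 1.40. Ccnb2, a B-type cyclin that activates Cdk1, had a fold change like those of Mcm6 and Mki67 (1.73, 1.72 and 1.71 on the log2 scale), whose order changed between settings. Ccnb2 had 4.89, 5.33 and 6.05 in NASH model livers, against 2.83, 3.69 and 4.76 in control livers. The groups did not overlap, and the log2 fold change was 1.73 ± 0.26 (3.31-fold, limma adjusted p = 3.7e-05). Ccna2, the cyclin of the S phase and of entry into mitosis, had 3.86, 4.34 and 4.59 in NASH model livers, against 2.54, 3.14 and 3.49 in control livers. Again the groups did not overlap (1.19 ± 0.14). Cdk1, the kinase of mitosis, had 3.0, 3.66 and 4.02 in NASH model livers, against 1.69, 2.46 and 2.88 in control livers. All controls lay below the floor and all NASH model samples above it, so Cdk1 was at least 1.61-fold higher (limma adjusted p = 5.4e-05). Plk1, a kinase that acts from mitotic entry to cell separation, had 3.18, 4.42 and 4.88 in NASH model livers, against 1.97, 2.63 and 3.58 in control livers. NASH model 1a alone lay within the control range, and the log2 fold change was 1.61 ± 0.25.

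Mki67 and Top2a, both used as markers of dividing cells, differed in whether they passed. Mki67 encodes Ki-67, which coats mitotic chromosomes. It had 5.04, 5.58 and 6.43 in NASH model livers, against 2.85, 3.97 and 4.78 in control livers. Every NASH model sample lay above every control, and the log2 fold change was 1.71 ± 0.24 (3.27-fold, limma adjusted p = 1.6e-05). Top2a, the topoisomerase that untangles replicated DNA, had 3.63, 3.99 and 4.70 in NASH model livers, against 2.57, 3.55 and 5.05 in control livers. The control range held all NASH model samples, and the estimate was 0.38 ± 0.26 (95% interval -0.16 to 0.92, limma adjusted p = 0.31). The highest control was control 6, and without it the gene passed, at 0.58 (limma adjusted p = 0.05). The difference between the changes of Mki67 and Top2a was not tested.

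The promoters of Ccnb2, Cdk1 and Mki67, which rose, and of Top2a, which did not pass, are shown because all 4 hold several CCAAT boxes and TTTGAA, the core of the CHR element. Length, build and direction are as above. The windows are Ccnb2 at chr9:70421505-70421804 on the minus strand; Cdk1 at chr10:69352863-69353162 on the minus strand; Mki67 at chr7:135716330-135716629 on the minus strand; and Top2a at chr11:99024140-99024439 on the minus strand. Capitals mark the CCAAT box, the TTTGAA core and the E2F forms on either strand.
Ccnb2: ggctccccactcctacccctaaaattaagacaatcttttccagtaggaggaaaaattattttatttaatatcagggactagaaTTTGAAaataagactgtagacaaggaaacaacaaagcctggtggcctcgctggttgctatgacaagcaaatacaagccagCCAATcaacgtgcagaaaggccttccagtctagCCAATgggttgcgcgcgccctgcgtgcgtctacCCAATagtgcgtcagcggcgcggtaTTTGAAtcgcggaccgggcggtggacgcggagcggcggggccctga
Cdk1: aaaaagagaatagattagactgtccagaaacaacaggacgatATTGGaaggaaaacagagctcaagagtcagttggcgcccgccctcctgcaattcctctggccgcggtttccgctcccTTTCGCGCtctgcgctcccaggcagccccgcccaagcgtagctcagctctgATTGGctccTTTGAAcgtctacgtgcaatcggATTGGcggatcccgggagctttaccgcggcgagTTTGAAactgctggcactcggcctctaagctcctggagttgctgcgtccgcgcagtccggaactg
Mki67: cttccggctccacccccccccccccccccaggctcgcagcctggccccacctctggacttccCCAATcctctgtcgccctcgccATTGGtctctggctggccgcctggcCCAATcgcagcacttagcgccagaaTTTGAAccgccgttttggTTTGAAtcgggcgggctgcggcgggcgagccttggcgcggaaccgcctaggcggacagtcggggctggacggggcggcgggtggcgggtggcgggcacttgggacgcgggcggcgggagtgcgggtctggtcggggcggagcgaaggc
Top2a: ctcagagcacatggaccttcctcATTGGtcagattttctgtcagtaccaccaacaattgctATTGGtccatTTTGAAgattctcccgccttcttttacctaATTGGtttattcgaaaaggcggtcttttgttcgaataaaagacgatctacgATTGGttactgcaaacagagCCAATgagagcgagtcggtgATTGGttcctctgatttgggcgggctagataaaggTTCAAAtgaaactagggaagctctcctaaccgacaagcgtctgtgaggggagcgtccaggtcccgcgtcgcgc
Ccnb2 has CCAAT at -87, -54 and -21, and TTTGAA at 5 and, farther off, at -167. Cdk1 has TTTGAA at -71 and -15, CCAAT at -80, -48 and -208, and an E2F form at -131. Mki67 has 3 CCAAT and 2 TTTGAA, and Top2a has 6 and 2. All 4 windows hold both motifs, whether or not the gene passed.

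The 4 members of the spindle checkpoint and of the anaphase-promoting complex, the ubiquitin ligase that ends mitosis, all passed as higher, beside 13.2% of all genes. They lay mostly near the floor, and other genes of these roles were not counted here. Bub1b, a checkpoint protein that holds back anaphase, had 2.41, 3.15 and 3.77 in NASH model livers, against 1.39, 1.73 and 2.76 in control livers. It was at least 1.14-fold higher (limma adjusted p = 0.00018), with 5 of 8 NASH model samples above the highest control. Cdc20, the activator of the ligase, was at least 1.11-fold higher (3.04 ± 0.58 in NASH model livers and 2.14 ± 0.30 in control livers, SD, n = 8 each). Bub1, a kinase of the checkpoint, passed the test, but all 16 samples lay below the floor and no fold is given, and it missed the threshold with median centring (limma adjusted p = 0.076). Ube2c, the ubiquitin-conjugating enzyme of the ligase, was above the floor in every sample and rose by 0.52 ± 0.16. Without NASH model 2 and 7 Ube2c missed the threshold (0.42, limma adjusted p = 0.084).

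Of 6 spindle and kinetochore genes 2 rose and 4 did not pass, beside 13.2% of all genes that were higher. Tpx2, which activates Aurora A on the spindle, rose by 0.64 ± 0.19, and Kif11, the motor that pushes the spindle poles apart, by 0.51 ± 0.15. Controls below the floor numbered 7 of 8 for Tpx2 and 6 of 8 for Kif11, and with the control mean at the floor the differences were 0.44 and 0.24. Tpx2 was 4.64 in NASH model 7 and 2.93 to 3.34 in the other 7 NASH model samples, against 2.42 to 3.14 in control livers. Without NASH model 7 its log2 fold change was 0.45 and still passed. The estimates of the kinetochore proteins Cenpe (0.50 ± 0.19) and Cenpf (0.39 ± 0.17), the microtubule-binding Nusap1 (0.39 ± 0.19) and the spindle pole kinase Aurka (0.13 ± 0.16) were positive and did not pass. For Cenpe and Cenpf 6 of 8 controls lay below the floor, and with the control mean at the floor the differences were 0.14 and 0.09. Cenpe passed under 4 and Cenpf under 3 of 28 alternative settings, and Nusap1 under 1 of 29.

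The chromosomal passenger complex corrects wrong attachments of chromosomes and starts cell separation. Limma called 0 of the 3 members here, where 26.6% of all genes passed in either direction. So few genes cannot tell this count from that share. The exact permutation test, on the same values, also called 0 of 3. Aurkb, the kinase of the complex, had 3.39, 3.65 and 4.11 in NASH model livers, against 3.21, 3.6 and 4.0 in control livers. The ranges nearly coincided (0.06 ± 0.14, limma adjusted p = 0.81). Birc5, or survivin, had an estimate of 0.27 ± 0.16 and Cdca8, or borealin, of -0.07 ± 0.17, and the unadjusted limma p-values of the 3 genes ran from 0.1 to 0.68. With spike-in centring Birc5 passed (0.53, limma adjusted p = 0.017). All 3 genes were above the floor in every sample.

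Of 4 genes of cell separation 3 rose, beside 13.2% of all genes. Kif20a, a motor of the spindle midzone, had 3.27, 3.66 and 4.35 in NASH model livers, against 1.87, 2.44 and 2.91 in control livers. The groups did not overlap, and the log2 fold change was 1.25 ± 0.17, with 7 of 8 controls below the floor; with the control mean at the floor the difference was 0.76. Ect2, which switches on the contractile ring, rose by 1.09 ± 0.17 and Prc1, which bundles the midzone microtubules, by 1.08 ± 0.21. For each of these, 6 of 8 controls lay below the floor, 7 of 8 NASH model samples lay above the highest control, and with the control mean at the floor the differences were 0.82 and 0.64. Anln, the anillin scaffold of the ring, had an estimate of 0.31 ± 0.17 and did not pass.

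Set side by side, replication and mitosis genes rose in like shares, 58.8% and 60.9% of those measured, beside 13.2% of all genes. Without the dimmest 40% of genes the shares were 68.8% of 16 replication genes and 45.5% of 11 mitosis genes, beside 20.7% of the 11703 genes then tested. The class medians were then 0.67 and 0.39. Over all measured members the median log2 fold changes were 0.66 for replication and 0.52 for mitosis, and no test was made between the classes. In the 13 samples whose label number both groups hold, the order of the medians turned (0.60 for replication and 0.65 for mitosis). Fitted changes of at least 2-fold were found in 2 of 17 replication genes and 9 of 23 mitosis genes, beside 4.02% of all genes tested. With group means below the floor raised to it, an alternative chosen after seeing the data, these were 2 replication genes (Mcm6 and Pcna) and 4 mitosis genes (Ccna2, Ccnb2, Plk1 and Mki67). Of the Mcm subunits, Pcna, Rrm1 and Rrm2 together, 7 of 8 rose. Of the 23 mitosis genes, 22 had positive estimates, against 12 of 17 replication genes.

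**Figure D3:**
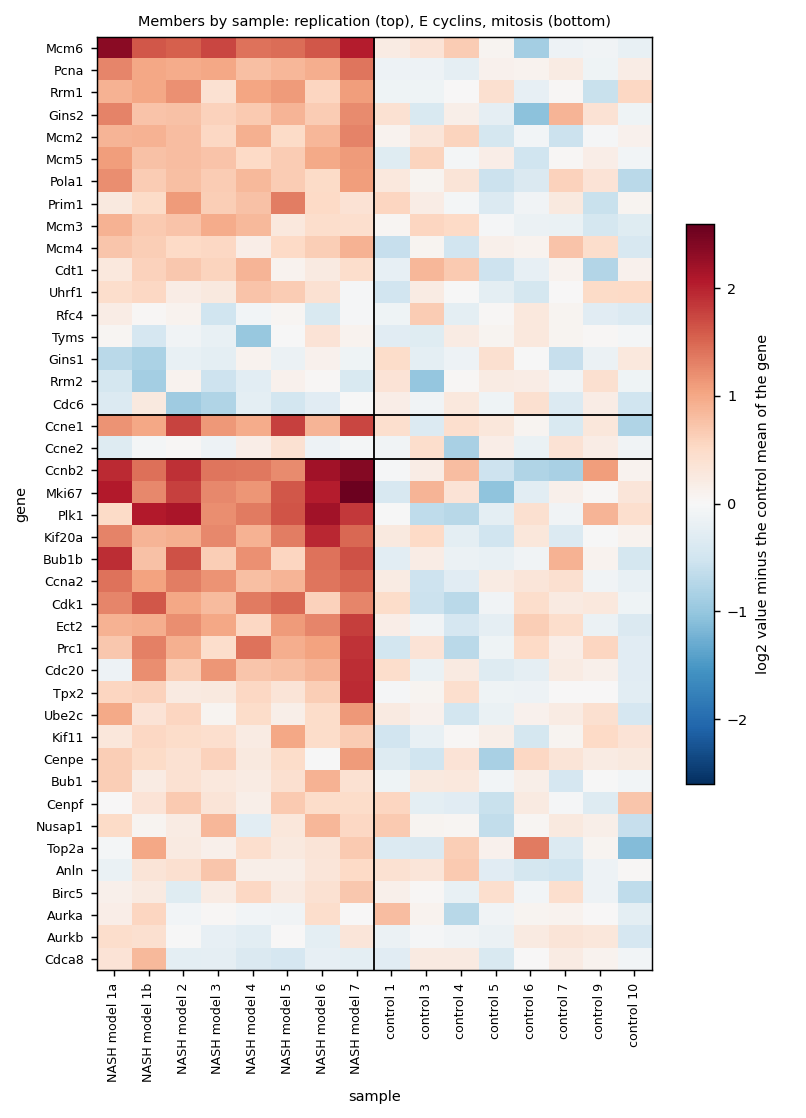
Log2 value minus the control mean of the gene, for 42 members (rows; replication, E cyclins and mitosis from top to bottom, sorted by fold change in each block) in 8 NASH model samples (left) and 8 control samples (right). Mcm6, Pcna, Ccnb2 and Mki67 lie above their control mean in all 8 NASH model samples, while Cdc6, Rrm2 and Cdca8, at the foot of their blocks, do not.

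The samples of the NASH model differed in how the classes stood. For each sample the value of every gene was taken relative to its control mean, and the median over the class was used. The replication median ran from 0.45 to 0.74 in NASH model livers and from -0.10 to 0.08 in control livers. The mitosis median ran from 0.53 to 1.13 in NASH model livers and from -0.20 to 0.17 in control livers. NASH model 7 had the highest mitosis median, at 1.13 against 0.53 to 0.77 in the other 7, and the lowest replication median, at 0.45. It held the highest NASH model value in 14 of 42 members, 10 of them mitosis genes. The rest were the replication genes Mcm2 (5.37), Mcm4 (4.73), Mcm5 (4.30) and Pcna (8.72). Its low replication median therefore does not mean that its replication genes were low throughout. NASH model 7 also had the highest mean level of the macrophage (8.07), cholangiocyte (5.44) and stellate cell markers (7.01), and the part of these cells in its mitosis values was not tested. Without NASH model 7, 26 members were called higher, and without NASH model 2 and 7, 24 were.

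**Figure D4:**
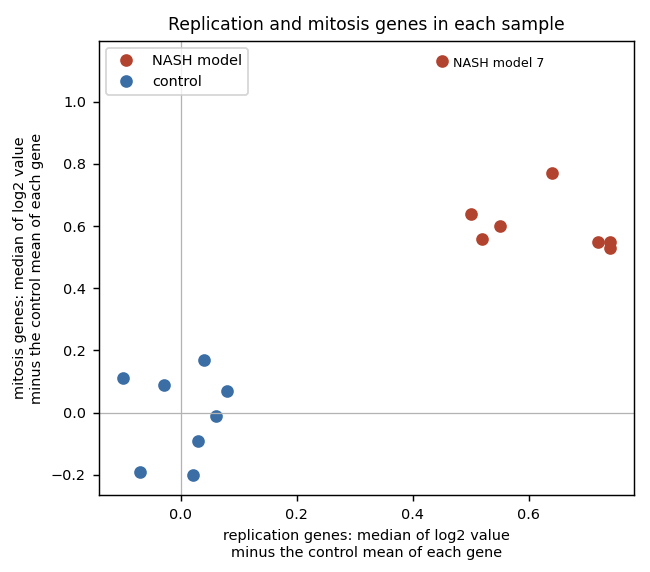
Median over the 17 replication genes (horizontal axis) and over the 23 mitosis genes (vertical axis) of the log2 value minus the control mean of each gene, 1 point a sample. The 8 NASH model samples lie above and to the right of the 8 control samples, with NASH model 7 highest on the mitosis axis.

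Within a group the members moved together only weakly. Over the 8 NASH model samples the median pairwise correlation was 0.16 among 253 pairs of mitosis genes and 0.02 among 136 pairs of replication genes, and over all gene pairs it was 0.00. Over the 8 control samples these medians were 0.13, -0.01 and 0.00. The pairs share their arrays and, for many genes, signals near the floor. The spread was larger in control than in NASH model livers for 29 of 42 members (69%), and for 60.7% of all genes.

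CCAAT was frequent in the promoters of both classes, while TTTGAA was found mostly in those of mitosis genes and E2F forms mostly in those of replication genes. RefSeq promoters matched 34 of the 42 measured members by symbol, in 37 windows, since Ect2, Prc1 and Uhrf1 have 2 windows each. Aurkb, Ccna2, Ccne2, Gins1, Gins2, Kif20a, Mcm4 and Tpx2 had none. TTTGAA was found in 81% of 21 mitosis windows and 6.67% of 15 replication windows, where 17.9% of all 32851 promoters of this length hold it. An E2F form was found in 4.76% of the mitosis and 46.7% of the replication windows, beside 2.26% of all promoters. CCAAT was found in 85.7% of the mitosis and 73.3% of the replication windows, beside 37.4% of all promoters. Among members that rose, 95.5% of 22 windows held CCAAT, 59.1% TTTGAA and 22.7% an E2F form. Among members that did not pass, 53.3% of 15 windows held CCAAT, 33.3% TTTGAA and 20% an E2F form. These are matches of letters, described and not tested. Matches shared bases in the E2F pairs of Mcm6 and Mcm5 (4 bases each), in CCAAT pairs of Ube2c and Uhrf1 (2 bases each) and between TTTGAA and CCAAT in Cdca8 (1 base).

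**Figure D5:**
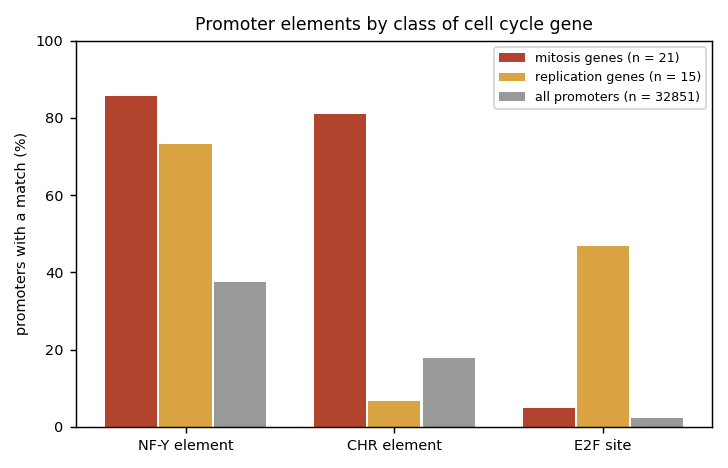
Share of promoter windows with at least 1 match on either strand, for 21 windows of mitosis genes, 15 of replication genes and all 32851 promoters. The NF-Y element (CCAAT) is frequent in both classes, the CHR element (TTTGAA) in mitosis genes at 81% and the E2F site in replication genes at 46.7%.

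Other genes of the cycle were taken from wider lists. Of 69 other mitosis genes 23 were higher and 0 lower (33.3% higher, beside 13.2% of all genes), with a median log2 fold change of 0.34. The largest rises in estimate were those of Stmn1, a microtubule-destabilising protein (1.66 ± 0.15), Arhgap11a (1.41 ± 0.20), and Cdca3, which promotes entry into mitosis (1.38 ± 0.27). Arhgap11a had 7 of 8 controls below the floor, and with their mean at the floor its difference was 0.83. Of 45 other replication genes 7 were higher and 3 lower (15.6% higher, near the share of all genes), with a median of 0.15. Chaf1b, a histone chaperone at the fork, rose by 0.80 ± 0.20. Of its controls 5 of 8 lay below the floor, and with their mean at the floor the difference was 0.74. The polymerase subunit Pold3 rose by 0.52 ± 0.10, and the initiation factor Mcm10 fell by 0.57. The count of 7 was 4 without NASH model 2 and 7, 4 without control 10 and 14 with centring on spike-in controls. With spike-in centring 18.3% of all genes were higher.

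Of 16 transcription factors of the cycle 4 were higher and 2 lower (25% and 12.5%, beside 13.2% and 13.4% of all genes). Mybl1, a Myb factor related to the one that switches on mitosis genes, had the largest rise in estimate (2.26 ± 0.22; 4.80 ± 0.62 in NASH model livers and 2.54 ± 0.28 in control livers, SD, n = 8 each). Of the Mybl1 controls 7 of 8 lay below the floor, and with their mean at the floor the difference was 1.91. Mybl2, the related Myb factor in the list, did not change in estimate (-0.02 ± 0.15, limma adjusted p = 0.93). Rbl1, the retinoblastoma relative p107, rose by 1.34 ± 0.19. E2f8, a repressor of E2F targets, fell by 1.24 ± 0.22 to 4.24 ± 0.52 in NASH model livers, against 5.48 ± 0.48 in control livers. The count of lower factors was 1 without control 3, 6 or 9, and 1 without NASH model 2, 3, 5 or 7. Of 15 G1 cyclins, kinases and inhibitors 6 rose and 0 fell (40% higher, beside 13.2% of all genes). Wee1, a kinase that restrains Cdk1, rose by 1.55 ± 0.30, the inhibitor Cdkn1a by 1.45 ± 0.48 (limma adjusted p = 0.029) and the inhibitor Cdkn2c by 0.94 ± 0.15. The groups overlapped for each of these genes. Controls were widely spread for Wee1 (SD 0.94, against 0.27 in NASH model livers) and Cdkn1a (SD 1.48, against 0.48).

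Markers of macrophages and of matrix-producing cells were mostly higher in the same NASH model samples. Cholangiocyte markers were higher in part, with 0 lower, and the remaining cell type lists were mixed or lower. Beside these counts, 13.2% of all genes were higher and 13.4% lower. Of 9 macrophage markers 8 rose and 0 fell, with a mean level of 7.52 to 8.07 in NASH model livers and 4.06 to 4.64 in control livers. Of 7 stellate cell and myofibroblast markers 6 rose (6.24 to 7.01 in NASH model livers, 4.86 to 5.46 in control livers). Of 5 cholangiocyte markers 2 rose and 0 fell (3.62 to 5.44 in NASH model livers, 3.64 to 4.20 in control livers). Of 7 T and B cell markers 2 rose and 1 fell (3.13 to 3.49 in NASH model livers, 3.07 to 3.54 in control livers). Of 8 neutrophil and granulocyte precursor markers 1 rose and 1 fell (2.68 to 3.49 in NASH model livers, 2.32 to 3.72 in control livers), and Mpo and Ltf were below the floor in all 16 samples. Of 6 endothelial markers 1 rose and 4 fell (6.16 to 6.64 in NASH model livers, 6.49 to 6.85 in control livers). Of 7 erythroid precursor markers 0 rose and 3 fell (3.55 to 3.85 in NASH model livers, 3.83 to 4.28 in control livers), with Rhag below the floor in all 16 samples. Of 10 hepatocyte markers 0 rose and 3 fell. The part of any of these cell types in the rise of the cell cycle genes was not tested.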

How the data were processed

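Total RNA from 16 liver samples was prepared with TRIzol and biotin-labelled for Affymetrix-type arrays, per the labels' protocols. The authors deposited log2 values for 29129 probe sets; the sources used here name no method of summarization or normalization. Column medians ran from 3.52 to 3.66, a range of 0.14 over the 0.1 allowed for leaving them unscaled, and arrays were quantile normalized (largest change 0.16). Of the probe sets 19572 had 1 gene symbol, 0 had several and 9557 had none listed, which gave 19505 genes at the probe set of highest mean. No dim gene was removed. Groups were taken from sample titles and compared with limma 3.58.1 in R 4.3.3 (lmFit, eBayes, two-sided, Benjamini-Hochberg over all genes). The model was tested on simulated data.

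The members, lists and tests were chosen with earlier results of these data known. Values in each group are given for the 3 replication and 6 mitosis genes with the largest changes and for fixed well-known members. Those of Cdc6 are given too, outside this rule. The 3 largest called genes of each other cell cycle list are named. In the lists, 5 symbols were matched through RefSeq synonyms. "At least" folds set the brighter group's mean against the floor. Precision is limited by the number of arrays. NASH model 1a and 1b share a number. Their genes differed with an SD of 0.387, within the 0.34 to 0.466 seen for the 27 remaining pairs of NASH model arrays, so both entered the tests. Alternatives changed the scaling, the filter on dim genes, the probe set rule, the variance model, array weights, the samples and the pairing.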

Additional observations from a re-analysis of the deposited data

Results flagged for a closer look

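Among 84 sets of 8 samples (42 members in 2 groups), 3 held a sample whose gap to the next exceeded the 95% critical value of Dixon's test, which chance passes in about 1 of every 20 sets. NASH model 7 had a Tpx2 value of 4.64, where the remaining 7 ranged from 2.93 to 3.34. Rrm2 was 3.64 in control 3, against 4.54 to 5.06 in the other controls. Tpx2 was 3.14 in control 4, against 2.42 to 2.76 in the other controls.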

How the results depend on the processing

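The count of members higher was 25, and it ran from 25 to 27 with each sample left out in turn (10 to 11 replication and 14 to 16 mitosis genes). None of the 25 calls was lost by leaving out 1 sample. Members lower numbered 0 to 1, the 1 being Rrm2 without control 3 or Cdc6 without NASH model 1b. With medians as the centre 1 replication gene was lower (1 of the members) and 1 G1 gene. Left-out samples moved the other replication genes to 4 to 7 higher and the transcription factors to 1 to 2 lower, the G1 genes to 0 to 1 lower. Without the dimmest 40% of genes 29 members were tested, with 17 higher, beside 20.7% of all genes then tested. Mitosis genes higher numbered 5 of the 11 then tested, and other mitosis genes higher 15. Fewer genes were tested, and the share of mitosis genes called also fell, from 60.9% to 45.5%. Scaling shifted the median of all genes from -0.04 to -0.12 with median centring and to 0.09 with spike-in centring. Higher genes made up 49.6% of all calls in the main analysis, 39.2% with median centring and 77.3% with spike-in centring, where 1048 genes were lower. Of all genes tested, 13.2%, 12.1% and 18.3% were higher in these settings, in that order. Spike-in centring gave 14 other replication genes higher and 1 lower, 1 transcription factor lower, and class medians of 0.91 for replication and 0.76 for mitosis; the replication median was 0.78 with values as deposited. With values as deposited, 1 other replication gene and 1 factor were lower, and with cyclic loess 1 factor. Without NASH model 2 and 7 the other replication genes higher numbered 4 and the factors lower 1.

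Signs turned only in members that did not pass. Rfc4 was 0.05 with values as deposited, 0.18 with spike-in centring and 0.01 without control 3. Spike-in centring gave Tyms 0.09, Cdca8 0.12 and Ccne2 0.17. Ccne2 was 0.04 as deposited, 0 with loess, 0.02 with the mean of NASH model 1a and 1b, 0.02 with the block, 0 in its 13 samples without it, and -0.13 to 0.06 with a sample left out. With a sample left out Aurkb ran from -0.01 to 0.11, and Aurka minus Aurkb from -0.02 to 0.21. The cause of these turns was not tested.

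Samples that share a label number did not deviate together (correlations -0.02 to 0.06 over 6 numbers), so they were not treated as pairs. With the replicate number as a block over 13 samples, 24 members were higher: Prim1 (0.54, limma adjusted p = 0.088) and Bub1 (0.054) were lost and Uhrf1 gained, and 1 other replication gene and 1 factor were lower. The same 13 samples without the block gave 26 higher, and 1 factor lower. The class medians were 0.61 for replication and 0.66 for mitosis with the block, so their order turned, and it also turned without the block in these samples (0.60 and 0.65). An exact permutation test of each gene, adjusted over all genes, called the same 25 members; the planned adjustment over the members alone was not run. Array weights, eBayes options and the probe set rule lost no call. The probe set rule could change little, since only 55 of 19505 genes had more than 1 probe set. Signal over background limits the folds of 10 called mitosis genes with control means below the floor: raising such means to it left 4 of 9 at 2-fold or more.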
